A study of Mus musculus with 4 samples.

Results

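The genes described here encode proteins that have been reported to bind S100A4, together with the paralogs of the nonmuscle myosin that S100A4 binds. They were chosen by name and not by their values, though earlier results of these data were known. *Myh9*, *Myh10*, *Myh14* and *Myl9* stand for nonmuscle myosin II chains, and *Trp53* and *Mdm2* for p53 and its inhibitor. *Ppfibp1*, *Rtkn* and *Sept2* stand for a scaffold, a cortical adaptor and a septin, and *Ager* for a cell surface receptor. All 10 were among the 14924 genes of the deposited table, matched by Ensembl identifier, and all 10 passed the filter on low values. RNA was measured by mRNA-seq in whole lenses of S100A4-/- mice (S100A4 null, kept on a C57BL/6J background) and of their WT littermates at 1 month of age, in 2 libraries of each genotype, each from a pool of 6 to 12 lenses. The series describes the libraries of a genotype as biological repeats. The null allele is carried in every cell of the animal and not in lens cells alone. Only RNA was measured, and neither the proteins nor their binding to S100A4 can be read from these values.

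S100A4 is a small calcium-binding protein that works as a dimer. On binding calcium it exposes a surface that grips short stretches of other proteins, and its best known target is the tail of the heavy chain of nonmuscle myosin IIA, whose filaments it helps to take apart. In the lens, nonmuscle myosin II pulls on the actin network under the membrane of fiber and epithelial cells, while p53 restrains growth and triggers stress responses, septins and rhotekin sit on the cortical cytoskeleton, and RAGE, the product of *Ager*, is a receptor for S100 proteins outside the cell.

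The targeted gene was compared first, because it checks the labels. *S100a4* (chr3:90603771-90606045, GRCm38) was at normalized values of 14.6 and 18.2 in S100A4-/- against 14420 and 14385 in WT libraries, so every library matched its label. Its neighbour *S100a5* (chr3:90608523-90611780) was at 2248 and 2462 in S100A4-/- against 8.35 and 8.76 in WT libraries (log2 fold change 7.94, limma adjusted p = 1.72e-30). A normalized value is the number of reads counted on a gene divided by 1 size factor of the library, and it is not divided by gene length. The libraries held 81602367 and 74108017 reads on genes in S100A4-/- lenses and 70253985 and 68038158 in WT lenses, and 1 read was worth between 0.856 and 1.09. At this depth each of the 10 genes had at least 32 reads in every library, above the floor of 3 reads. The tissue was also checked. The 10 lens fiber markers, led by *Cryaa*, summed to 2.71e+07 and 2.91e+07 in S100A4-/- and to 2.92e+07 and 2.94e+07 in WT libraries, and 0 of 10 passed with limma at an adjusted p of at most 0.05 and any fold, while 1 had an unadjusted p under 0.05. That gene, *Mip*, a fiber membrane channel, was lower in S100A4-/- lenses by limma (log2 fold change −0.12, adjusted p = 0.124) and passed with edgeR (adjusted p = 0.0290) and DESeq2 (adjusted p = 0.0352). Without the second S100A4-/- library 2 of the 10 were called lower.

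Of the 10 partner genes, 0 passed the threshold, which was a change of 2-fold or more together with a limma p of at most 0.05 after Benjamini-Hochberg adjustment over all 14780 genes tested. Of all genes tested 3.72% passed, 3.65% higher and 0.0744% lower in S100A4-/- lenses. Without the fold threshold the count was again 0 of 10, against 6.96% of all genes (5.62% higher and 1.33% lower). The edgeR quasi-likelihood test and the DESeq2 Wald test on the recovered reads also called 0 of 10 by both rules. At an unadjusted p under 0.05, 1 of the 10 was found with limma, *Myl9*, where 17.7% of all genes were. The 2 S100A4-/- values lay on one side of both WT values for 6 of the 10, and for 46.9% of all genes tested (23.7% higher and 23.2% lower). Of these 6, *Myl9*, *Rtkn* and *Ager* were higher in S100A4-/- lenses and *Myh10*, *Ppfibp1* and *Sept2* lower. The median log2 fold change of the 10 was −0.013, and that of all genes tested was −0.005 with quartiles of −0.107 and 0.146. For 9 of the 10 the 95% interval of the log2 fold change lay within a 2-fold change either way, and *Ager* was the exception.

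**Figure D1:**
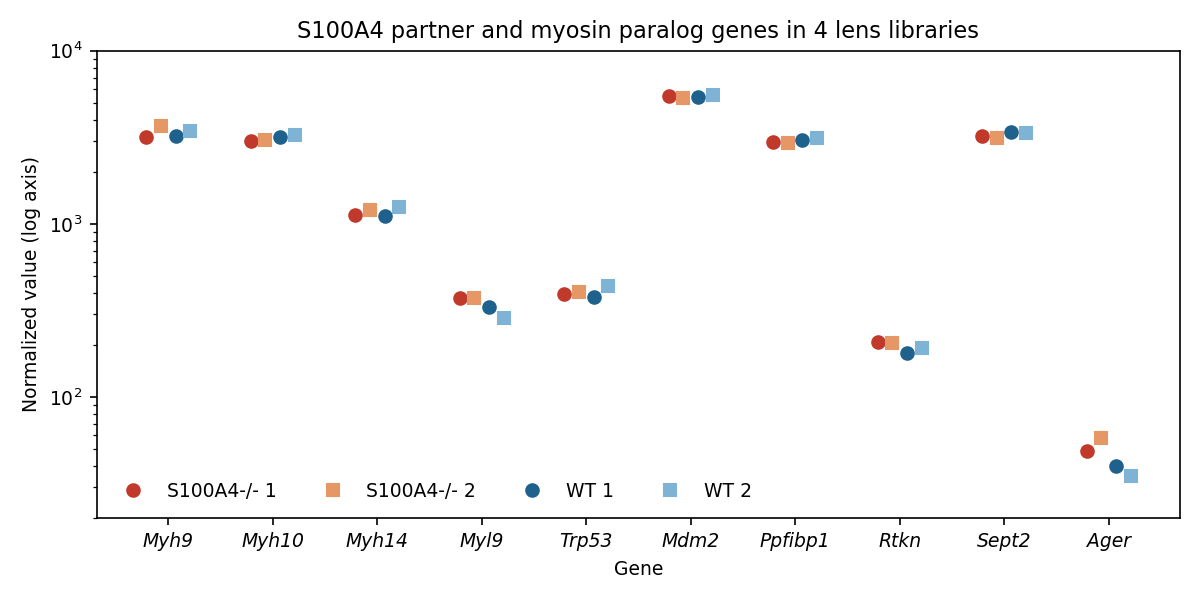
Normalized value (log axis) of each of the 10 partner genes in the 4 lens libraries, with circles and squares for the libraries numbered 1 and 2 of each genotype. The 4 points of a gene lie close together at each level, from *Ager* at 35.0 to 57.8 up to *Mdm2* at 5361 to 5529.

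**Figure D2:**
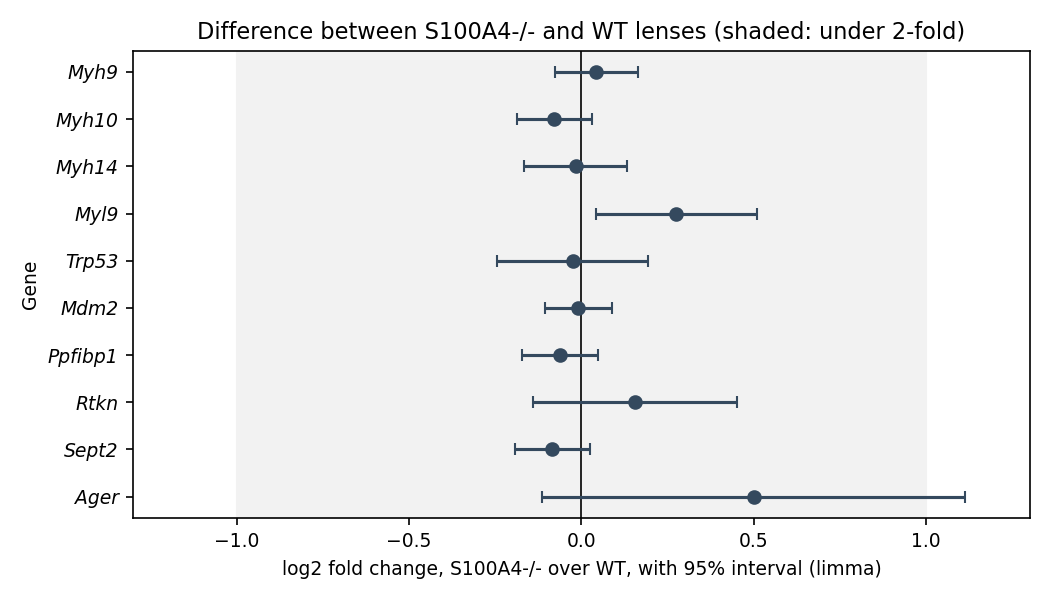
Log2 fold change of S100A4-/- over WT lenses for each of the 10 partner genes (points) with the 95% interval of the limma fit (bars), the shaded band marking changes under 2-fold. The interval of *Ager* alone reaches past the band, to 1.11, and that of *Myl9* alone does not include 0.

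*Myh9* (ENSMUSG00000022443, chr15:77760587-77842175, minus strand) encodes the heavy chain of nonmuscle myosin IIA. *Myh10* (ENSMUSG00000020900, chr11:68691559-68816632, plus strand) encodes that of myosin IIB and *Myh14* (ENSMUSG00000030739, chr7:44605803-44670843, minus strand) that of myosin IIC. S100A4 is known to bind near the end of the tail of the IIA heavy chain. The last 180 coding bases before the stop codon of each gene are given from the GENCODE M21 transcripts. These ends lie at chr15:77761902-77763016, chr11:68814517-68815068 and chr7:44606213-44606659 on GRCm38, on the strands given above, and each crosses at least 1 intron. Capitals mark the longest run of identical bases that the *Myh9* and *Myh10* ends share (13 bases). In *Myh14* they mark the longest run shared with *Myh9* (8 bases), and the *Myh14* end was not compared with that of *Myh10*. Such runs do not measure how alike the encoded proteins are, as different bases can encode the same amino acid.
Myh9 coding end: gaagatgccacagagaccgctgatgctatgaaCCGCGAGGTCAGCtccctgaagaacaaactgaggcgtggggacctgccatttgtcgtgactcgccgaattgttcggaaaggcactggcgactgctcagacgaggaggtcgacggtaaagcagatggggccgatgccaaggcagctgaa
Myh10 coding end: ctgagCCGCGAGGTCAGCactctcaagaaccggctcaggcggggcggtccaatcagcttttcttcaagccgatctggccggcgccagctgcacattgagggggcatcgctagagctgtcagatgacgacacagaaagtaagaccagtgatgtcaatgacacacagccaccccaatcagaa
Myh14 coding end: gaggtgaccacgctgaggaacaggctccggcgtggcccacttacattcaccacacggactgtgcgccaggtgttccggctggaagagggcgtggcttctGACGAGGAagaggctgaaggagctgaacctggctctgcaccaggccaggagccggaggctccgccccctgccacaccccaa

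A longer run of identical bases lies in the motor domain. *Myh9* and *Myh10* share a run of 122 coding bases without a difference, in 1 exon at chr15:77786539-77786660 and at chr11:68768199-68768320. It is shown because reads of 50 bases that fall wholly inside it fit both genes, while the counting kept reads placed at a single locus. *Myh14* at the same place (chr7:44638995-44639116) differs from *Myh9* at 8 bases, in capitals.
Myh9 shared run: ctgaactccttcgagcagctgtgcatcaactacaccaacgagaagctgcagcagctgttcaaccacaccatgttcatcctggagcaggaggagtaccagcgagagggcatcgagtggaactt
Myh10 shared run: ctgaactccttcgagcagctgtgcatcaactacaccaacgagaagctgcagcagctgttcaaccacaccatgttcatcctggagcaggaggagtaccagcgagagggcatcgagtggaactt
Myh14 same place: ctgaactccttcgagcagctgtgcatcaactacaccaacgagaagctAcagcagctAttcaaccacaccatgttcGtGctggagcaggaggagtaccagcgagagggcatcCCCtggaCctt

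Such shared words were few. Of all stretches of 50 bases in the annotated transcripts, 0.68% of *Myh9*, 0.69% of *Myh10* and 0.325% of *Myh14* also occurred in another gene, and 0% of *Myl9* and of *Ager*.

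The heavy chain genes differed little between the genotypes. *Myh9* was at normalized values of 3179 and 3664 in S100A4-/- against 3205 and 3422 in WT libraries. The groups overlapped, and the S100A4-/- libraries held both the lowest and the highest value. Its log2 fold change was 0.04 (standard error 0.06, 95% interval −0.08 to 0.16, limma adjusted p = 0.774), and it went below 0 without the second S100A4-/- library (−0.06) and without the first WT library (−0.004). *Myh10* stood at 3013 and 3064 in S100A4-/- and at 3173 and 3246 in WT libraries. Both S100A4-/- values were below both WT values, a log2 fold change of −0.08 (standard error 0.05, 95% interval −0.19 to 0.03, limma adjusted p = 0.479). *Myh14* was at 1123 and 1198 against 1105 and 1246, with the S100A4-/- values between the WT values. Its log2 fold change of −0.02 (95% interval −0.17 to 0.13, limma adjusted p = 0.942, standard error 0.07) turned to 0.01 when libraries were scaled to equal totals.

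Levels of different genes were compared per kilobase of exons. In WT lenses *Myh10* had the highest level of the heavy chain genes, 306.9 ± 4.95 (SD, n = 2) normalized reads per kb, followed by *Myh9* at 256.3 ± 11.9 (SD, n = 2) and *Myh14* at 161.6 ± 13.7 (SD, n = 2). This order held in each of the 4 libraries, but the length used for it matters. Per kb of the longest annotated transcript, *Myh9* was at 445.7 and *Myh10* at 412.0 in WT lenses, because the exons annotated for *Myh9* add up to 12928 bases and its longest transcript to 7433. Each heavy chain was then expressed as a share of the sum of the 3 levels per kb of exons. *Myh9* took 35.7% and 38.2% in S100A4-/- against 35.3% and 35.5% in WT libraries. Both S100A4-/- shares were above both WT shares, by 1.63 percentage points between the means, but the S100A4-/- libraries differed from each other by more than that. The exact permutation test (two-sided, 2 libraries against 2) gave p = 0.33, the smallest it can give. *Myh10* took 41.9% and 39.5% against 43.2% and 41.6%, a difference of −1.68 percentage points (exact permutation p = 0.667), and *Myh14* 22.4% and 22.2% against 21.6% and 23.0% (0.05 percentage points, exact permutation p = 1). Per kb of the longest transcript the differences were 1.77 percentage points for *Myh9*, −1.74 for *Myh10* and −0.04 for *Myh14*. Leaving out each library in turn, the difference lay between 0.37 and 2.89 percentage points for *Myh9*, between −2.84 and −0.52 for *Myh10* and between −0.63 and 0.73 for *Myh14*.

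**Figure D3:**
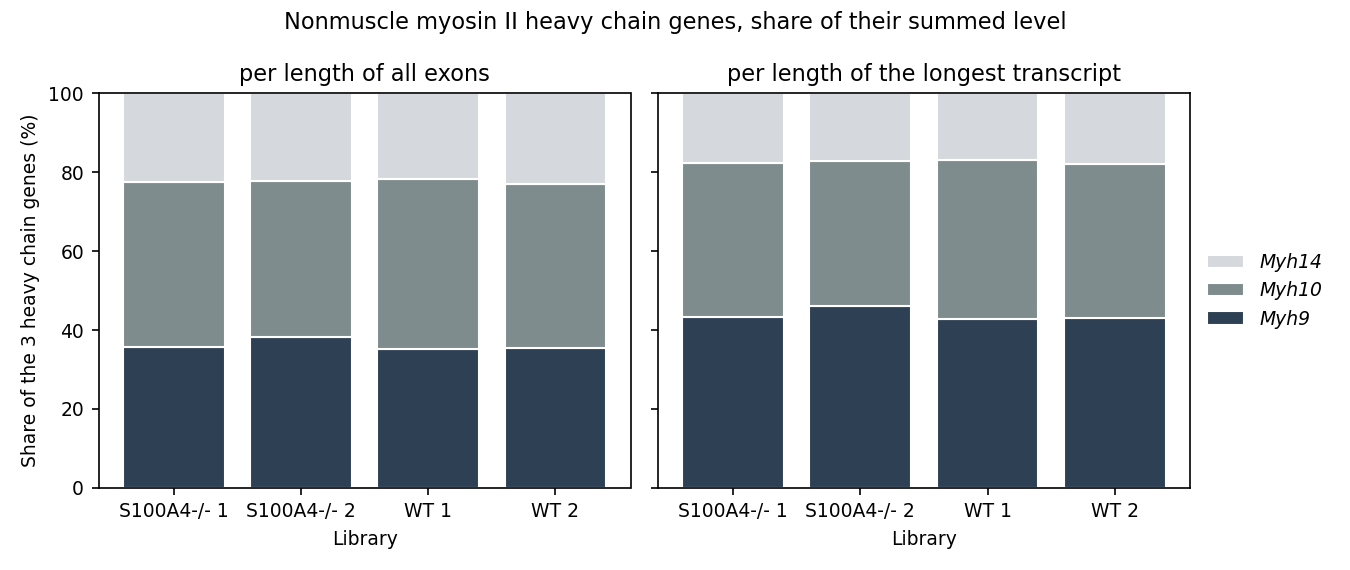
Share (%) of *Myh9*, *Myh10* and *Myh14* in the sum of their levels per kb in each of the 4 lens libraries, with levels per kb of all exons on the left and per kb of the longest transcript on the right. The bars of the 4 libraries are nearly alike within a panel, while *Myh9* passes *Myh10* in the right panel.

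*Myl9* (ENSMUSG00000067818, chr2:156775420-156781658, plus strand) encodes a regulatory light chain used by smooth muscle and nonmuscle myosin II. Its normalized values were 372 and 372 in S100A4-/- against 330 and 286 in WT libraries. The S100A4-/- values were alike and above both WT values, which differed from each other by 0.21 on the log2 scale. The log2 fold change was 0.28 (standard error 0.12, 95% interval 0.04 to 0.51), with an unadjusted p of 0.0223 and an adjusted p of 0.177 by limma, 0.175 by edgeR and 0.625 by DESeq2, so it did not pass. With each library left out in turn it lay between 0.17 and 0.38. It was the largest difference among the partner genes whose mean value reached 50. Over the 4 libraries and 4135 genes of similar level, the genes with the pattern nearest to that of *Myl9* were *Gpatch11* (Euclidean distance on the centred log2 scale 0.0269), *Tarsl2* (0.0285) and *Prkar2a* (0.0406), and with 4 points this is a description of the pattern only.

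Whole lenses were used, so fewer cells of a type and less RNA per cell cannot be told apart, and other eye cells may be in the pools. Markers of several such cells were higher in the S100A4-/- libraries. They are given here because *Myl9*, *Rtkn* and *Ager* had higher values in the same libraries, though none of these genes passed. Markers are counted here at a limma adjusted p of at most 0.05 and any fold, and the most abundant marker of a list is that by value in WT lenses. Of 8 smooth muscle and pericyte markers 5 were analysed here, and they summed to 21056 and 22687 in S100A4-/- and to 20889 and 21291 in WT libraries. The sum is mostly *Acta2*, smooth muscle actin, with 16610 and 18375 against 16656 and 17114 and a log2 fold change of 0.05 (limma adjusted p = 0.634). Only *Myh11*, the smooth muscle myosin heavy chain, passed, with 30.0 and 38.5 against 8.35 and 6.57 (log2 fold change 2.06, limma adjusted p = 0.00529, standard error 0.50), and its call was lost without the first or the second S100A4-/- library. The 4 macrophage markers in the table, led by *Csf1r*, summed to 227.8 and 190.5 against 79.4 and 65.7, and 3 of the 4 passed. That count was 0 without the first S100A4-/- library, 2 without the second and 1 with DESeq2. The 6 vascular endothelium markers, with *Tek* the most abundant in WT, summed to 197.8 and 189.5 against 101.3 and 119.3. Of these 1 passed, *Kdr*, a receptor for vascular endothelial growth factor, at 74.5 and 60.8 against 9.40 and 9.85 (log2 fold change 2.68, limma adjusted p = 3.90e-06), while 2 did without the first WT library. *Kdr* was the most abundant of the list in the S100A4-/- libraries. *Tek* itself was lower there, at 46.2 and 44.6 against 49.1 and 59.1 (log2 fold change −0.24, limma adjusted p = 0.738). Of the other lists, 8 of 8 rod photoreceptor markers, led by *Gnat1*, passed upward (sums of 10545 and 10357 against 2424 and 2536), as did 5 of 5 pigment cell markers (1178 and 1230 against 174.4 and 260.6). For rod proteins, the paper also reports raised PDE gamma and transducin staining in sections of S100A4-/- lenses. It further reports more of several photoreceptor proteins in immunoblots of S100A4-/- lens lysates. The pigment cell list was led by *Tyrp1* in WT and by *Dct* in S100A4-/- libraries, and 4 of 5 passed without the first and 3 of 5 without the second S100A4-/- library. Among 6 Müller glia markers 3 passed upward. *Vim*, the most abundant of them, was lower in S100A4-/- lenses (log2 fold change −0.10, limma adjusted p = 0.188) and did not pass. With the replicate block 3 Müller glia markers were called higher and 1 lower. Among 5 fibroblast markers, with *Pdgfra* the most abundant, 1 passed, *Col1a2*, by less than 2-fold (log2 fold change 0.34, limma adjusted p = 0.00161). Among 6 lens epithelium markers, with *Pax6* the most abundant, 1 passed, *Slc38a3*, also by less than 2-fold (log2 fold change 0.23, limma adjusted p = 0.0261). The call of *Slc38a3* was lost with any 1 of the 4 libraries left out, with equal totals and with DESeq2. Without the trend of variance with level in the limma fit, 0 smooth muscle, macrophage, fibroblast and lens epithelium markers passed, with 1 endothelial, 1 Müller glia, 3 pigment cell and 7 rod markers. Levels within a list were unlike. WT means were 88852 for *Vim* against 91.0 for *Rlbp1*, 16885 for *Acta2* against 7.46 for *Myh11*, and 3843 for *Pdgfra* against 3.76 for *Dcn*. The sums of these lists mostly follow their most abundant markers. Which cells the RNA of *Vim*, *Acta2* and *Pdgfra* came from was not tested. No listed marker in the table was at 0 in any library, although *Mlana* was under the floor of 3 reads in both WT libraries, at 1.04 and 2.19. In the second WT library *Tie1* at 1.09 and *C1qb* at 2.19 were also under it, against 11.5 and 19.8 in the first. *C1qb* was among the 3 macrophage markers that passed with limma, but not with DESeq2 (adjusted p = 0.589). The part of these cells in the values of *Myl9*, *Ager* and the other partner genes was not tested. The 10 partner genes together summed to 20058 and 20394 in S100A4-/- and to 20243 and 20897 in WT libraries.

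**Figure D4:**
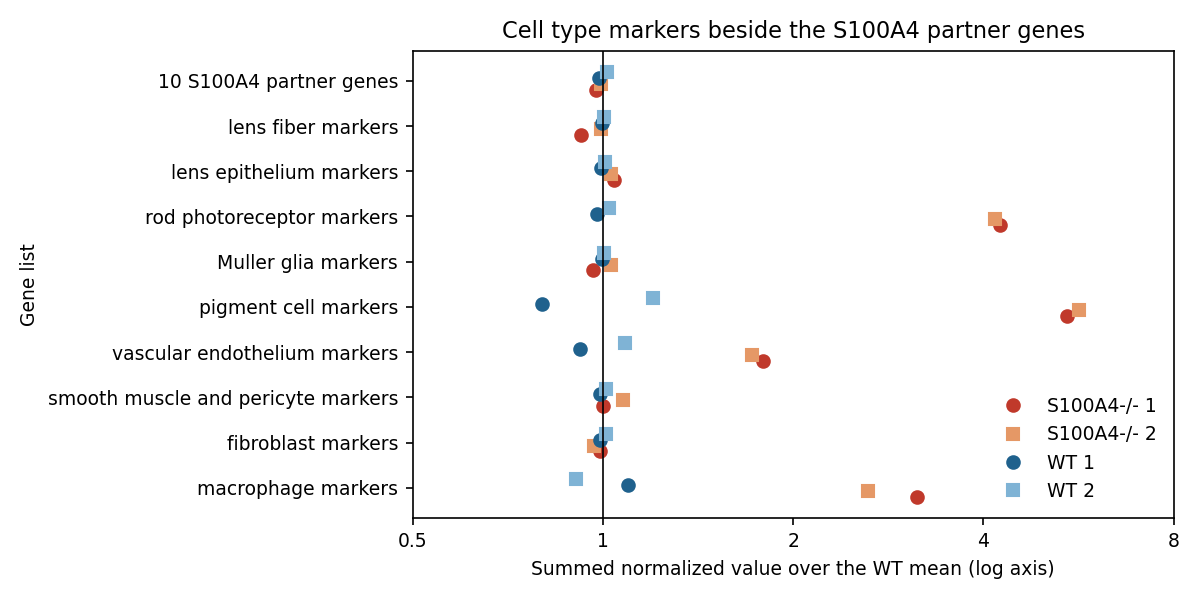
Summed normalized value of each marker list and of the 10 partner genes in each library, divided by the mean of the WT libraries (log axis). The sums of the rod, pigment cell, macrophage and vascular endothelium markers lie to the right in both S100A4-/- libraries, while the 10 partner genes and the lens fiber and lens epithelium markers lie near 1.

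*Trp53* (ENSMUSG00000059552, chr11:69580359-69591873, plus strand) encodes p53, a transcription factor of stress responses reported to bind S100A4 through its C-terminal region. It was at 395 and 401 in S100A4-/- against 376 and 437 in WT libraries, with the S100A4-/- values between the WT values. Its log2 fold change was −0.03 (standard error 0.11, 95% interval −0.24 to 0.19, limma adjusted p = 0.939) and went to 0.003 with equal totals. *Mdm2* (ENSMUSG00000020184, chr10:117688875-117710758, minus strand) encodes the ubiquitin ligase that marks p53 for breakdown and is itself a target gene of p53. It had 5511 and 5361 in S100A4-/- and 5412 and 5529 in WT libraries, which overlapped. Its log2 fold change was −0.01 (standard error 0.05, 95% interval −0.11 to 0.09, limma adjusted p = 0.951), and it was 0.02 with equal totals and 0.03 with quantile normalization. *Mdm2* had the highest level of the 10 genes, 1076 ± 16.3 (SD, n = 2) normalized reads per kb of exons in WT lenses, a level above that of 94.3% of genes. The level of *Trp53* was 100.5 ± 10.7 (SD, n = 2) per kb. Words of 50 bases shared with other genes made up 3.95% of *Trp53*, and the pseudogene *Trp53-ps* shared more of them than any other gene.

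*Ppfibp1* (ENSMUSG00000016487, chr6:146888487-147032025, plus strand) encodes liprin-beta-1, a scaffold protein tied to adhesion sites through other liprins and LAR-type phosphatases. It was at 2978 and 2941 in S100A4-/- against 3035 and 3150 in WT libraries. Both S100A4-/- values were below both WT values, by 0.06 on the log2 scale (standard error 0.05, 95% interval −0.17 to 0.05, limma adjusted p = 0.606). *Sept2* (ENSMUSG00000026276, chr1:93478964-93510260, plus strand) encodes a septin, a GTP-binding protein that builds filaments along actin and membranes. It stood at 3234 and 3130 in S100A4-/- and at 3388 and 3356 in WT libraries. The groups did not overlap, and the log2 fold change was −0.08 (standard error 0.05, 95% interval −0.19 to 0.02, limma adjusted p = 0.440). The value of *Sept2* and its level per kb are uncertain, since GENCODE M21 holds a second *Sept2* identifier on the same strand, not analysed here, that shares 41.8% of its exonic bases. The deposited table does not hold that identifier. Reads were counted on another annotation (v73), and whether it held the second identifier was not checked.

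*Rtkn* (ENSMUSG00000034930, chr6:83135463-83152579, plus strand) encodes rhotekin, which binds active small GTPases and also septins. It was at 206 and 206 in S100A4-/- against 180 and 191 in WT libraries. Both S100A4-/- values were above both WT values, a log2 fold change of 0.15 (standard error 0.15, 95% interval −0.14 to 0.45, limma adjusted p = 0.644). The value of *Rtkn* is uncertain, since 41.65% of its exonic bases overlap *Wdr54* on the opposite strand. The library kit keeps strand, but the strand setting of the counting is not given in the sources used here.

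*Ager* (ENSMUSG00000015452, chr17:34597862-34600936, plus strand) encodes RAGE, the receptor for advanced glycation end products, which extracellular S100 proteins bind. Its reads numbered 57 and 57 in S100A4-/- against 38 and 32 in WT libraries, or normalized values of 48.8 and 57.8 against 39.7 and 35.0. Both S100A4-/- values were above both WT values. The log2 fold change was 0.50 (standard error 0.30, 95% interval −0.11 to 1.11), with adjusted p-values of 0.414 by limma, 0.427 by edgeR and 0.837 by DESeq2. *Ager* had the fewest reads of the 10 genes, and at this depth neither no change nor a 2-fold rise lay outside its interval.

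Per kb of exons in WT lenses, the order of the 10 genes ran from *Mdm2* over *Sept2* (422.6 ± 2.87), *Myh10*, *Ppfibp1* (277.8 ± 7.28), *Myl9* (264.9 ± 26.9), *Myh9*, *Myh14* and *Trp53* to *Rtkn* (43.3 ± 1.81) and *Ager* (17.4 ± 1.53, all SD, n = 2). Neighbours kept this order in all 4 libraries except in a pair of places. *Ppfibp1* was above *Myl9* in 1 of 4 libraries and *Myl9* above *Myh9* in 3 of 4. Per kb of the longest transcript, the genes after *Mdm2* and *Sept2* were *Ppfibp1* (604), *Myh9* (446), *Myh10* (412) and *Myl9* (273), and the last 4 places were the same. *Ager* lay above 26.7% of the genes in level per kb.

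Genes that work with these partners were then counted, in 9 lists of 102 different genes, of which 95 were tested. The lists were drawn up by hand around each partner. At an adjusted p of at most 0.05 and any fold, 4 of the 95 were higher and 2 lower in S100A4-/- lenses, 6.32% against 6.96% of all genes tested, and 0 of 95 changed by 2-fold or more with limma, where 19 of 95 had an unadjusted p under 0.05, against 17.7% of all genes tested. DESeq2 called 0 of 95 at 2-fold and edgeR 1, *Rhpn2* (44.5 and 28.4 in S100A4-/- against 15.7 and 10.9 in WT libraries), whose log2 fold change by limma was 1.37 (adjusted p = 0.0502 by limma and 0.0489 by edgeR). Over the 95 genes the log2 fold changes had a median of 0.017. Without the trend of variance with level in the limma fit, none of the 6 genes passed.

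In the list of other nonmuscle myosin II and actin filament genes, 1 of 12 rose, 0 fell and the median was 0.003. Without the second S100A4-/- library 1 was called higher and 1 lower. *Actn1*, an actin crosslinker, had 1249 and 1343 in S100A4-/- and 1042 and 972 in WT libraries, a rise of 0.36 on the log2 scale (limma adjusted p = 4.99e-04, standard error 0.07). The most abundant gene of the list per length, *Actb*, was at 27294 and 30903 against 30370 and 30359 (−0.06, limma adjusted p = 0.502), and its sign turned without the first S100A4-/- library (0.03). Of 13 myosin II kinase and phosphatase genes, which act on the phosphorylation of the light or heavy chains, 0 passed with limma, edgeR or DESeq2 and 1 had an unadjusted p under 0.05 with limma. Their median was 0.038, and the most abundant per length, *Cdc42bpa*, had a log2 fold change of −0.07 (limma adjusted p = 0.428). Of 11 small GTPases of the cytoskeleton and their effectors, 0 passed with limma or DESeq2 and 1, *Rhpn2*, with edgeR. The limma count was 1 with a pseudocount of 5, with equal totals and without the first WT library. An unadjusted p under 0.05 was found for 1 of the 11, and the median was 0.068. *Rhob*, the most abundant of them per length, was at −0.08 (limma adjusted p = 0.492), or 0.002 without the second S100A4-/- library.

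Septins assemble with each other into mixed filaments, and of 12 listed beside *Sept2* 10 were analysed here. *Sept9* rose, from 159 and 184 in WT to 253 and 302 in S100A4-/- libraries (log2 fold change 0.69, limma adjusted p = 8.20e-04, standard error 0.14). Its adjusted p was 0.117 without the second S100A4-/- library. The other 9 did not pass, and the most abundant per length, *Sept8*, was at −0.04 (limma adjusted p = 0.685). The median of the list was 0.033. *Sept5* is uncertain, as 80.45% of its words of 50 bases also occur in another annotated gene. Of 8 liprin and LAR-type phosphatase genes 0 passed with limma, edgeR or DESeq2, with 1 at an unadjusted limma p under 0.05 and a median of 0.125. *Ptprf*, which encodes LAR and was the most abundant of these per length, was at 0.002 (limma adjusted p = 0.989), and below 0 without the first S100A4-/- library (−0.02) or the first WT library (−0.02).

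Of 10 listed genes of the p53 family and its regulators 7 were analysed here, and 0 of 7 passed with limma, edgeR or DESeq2 or had an unadjusted limma p under 0.05, with a median of −0.063. *Usp7*, a deubiquitinase of Mdm2 and p53 and the most abundant per length, had a log2 fold change of −0.06 (limma adjusted p = 0.657). Among 20 target genes of p53, 2 rose and 0 fell, with a median of 0.017. An unadjusted limma p under 0.05 was found for 7 of the 20, against 17.7% of all genes tested. Of these *Ccng1*, *Sesn2*, *Cdkn1a* and *Gdf15* were higher and *Fas*, *Tigar* and *Rrm2b* lower in S100A4-/- lenses. *Ccng1*, cyclin G1 and the most abundant target per length, was at 48040 and 45795 in S100A4-/- and at 35639 and 34379 in WT libraries. This was the smallest p among the listed partners and pathway genes, with a log2 fold change of 0.42 (limma adjusted p = 3.72e-10, standard error 0.04). *Sesn2*, a stress-induced regulator of growth signalling, had 195 and 198 against 101 and 123 (0.81, limma adjusted p = 8.77e-04, standard error 0.17). Its adjusted p was 0.0552 without the first and 0.0572 without the second S100A4-/- library. The remaining 18 did not pass.

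RAGE ligands and signalling genes counted 13, of which 11 were analysed here, and 1 fell, with a median of 0.012. That gene was *S100a6*, which encodes an S100 protein and was the most abundant of the list per length. It lies near *S100a4*, beyond *S100a5*, which was far higher in S100A4-/- lenses (values above) and was not in this list. Normalized values of *S100a6* were 20720 and 22182 in S100A4-/- and 24584 and 22976 in WT libraries. Both S100A4-/- values were below both WT values (log2 fold change −0.15, limma adjusted p = 0.0285, standard error 0.04), but the adjusted p was 0.257 with equal totals, 0.0595 with edgeR, 0.0799 with DESeq2, 0.294 without the first S100A4-/- library and 0.496 without the first WT library. Of 6 other reported binding partners of S100A4, 3 of which also stand in lists above, 1 fell and the median was −0.111. *Iqgap1*, a scaffold for actin regulators, was at 1080 and 1180 against 1338 and 1363. Its log2 fold change was −0.26 (limma adjusted p = 0.0151, standard error 0.07), and the call was lost with equal totals (0.129), with DESeq2 (0.0923), without the first S100A4-/- library (0.229) and without the first (0.0579) or the second WT library (0.111). *Anxa2*, a membrane-binding annexin and the most abundant of this list per length, was at −0.10 (limma adjusted p = 0.305).

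**Figure D5:**
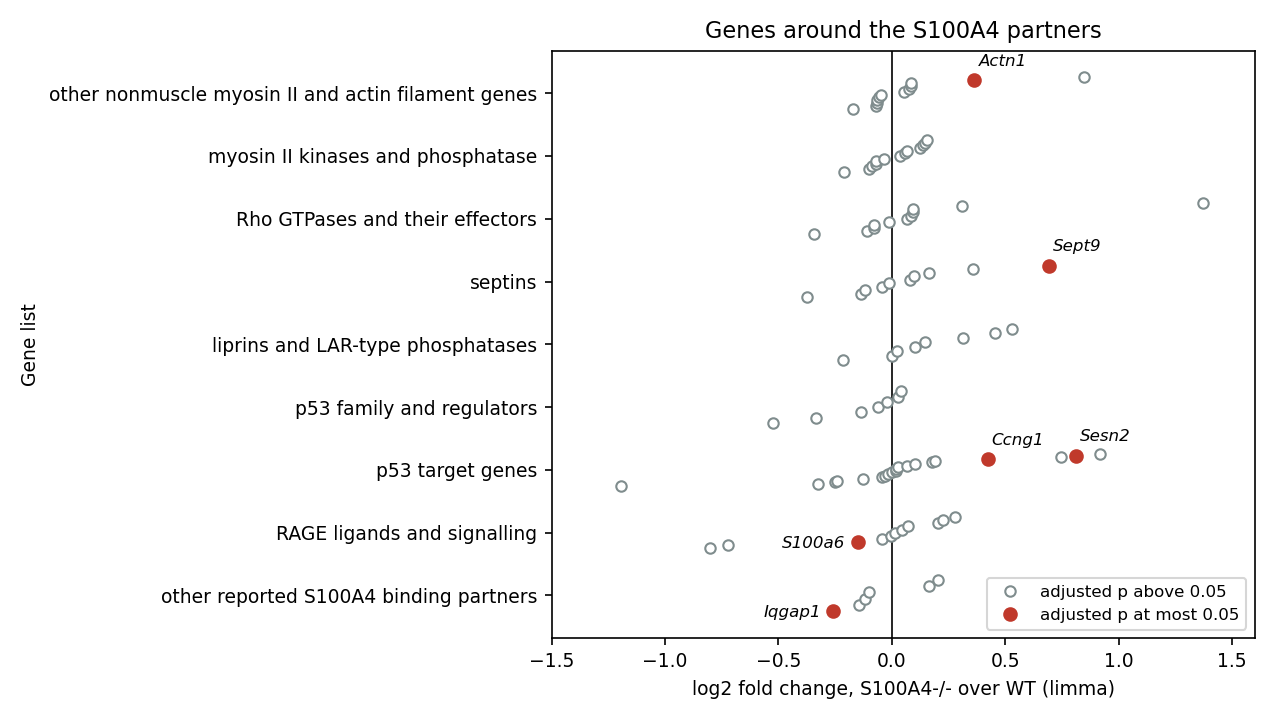
Log2 fold change of S100A4-/- over WT lenses for each gene of the 9 lists around the partners (limma), with filled points for an adjusted p of at most 0.05 and open points for all others. The 6 filled points are *Actn1*, *Sept9*, *Ccng1* and *Sesn2* to the right and *S100a6* and *Iqgap1* to the left of 0, and none reaches a log2 fold change of 1 either way.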

How the data were processed

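Stranded, single-end mRNA-seq libraries were made from S100A4-/- and WT lenses (2 each). Per the labels and the paper's methods, the authors used Trim Galore for trimming, STAR for mapping to GRCm38 (mm10, v73), HTSeq for gene counts of reads placed at a single locus, a minimum of 10 reads in any library, and DESeq2 for normalization. Versions of these tools are not given in the sources used here. The deposited signal values are counts divided by 1 size factor per library, and 100% of values were whole multiples of 1 read (tolerance 0.01 reads), so reads were recovered by division.

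Genotypes were compared with limma 3.58.1 in R 4.3.3 (trend of variance with level, no replicate block) on log2(value + 1), which understates changes of low genes, for the 14780 genes that reached a value of 10 in any library (144 left out), with Benjamini-Hochberg adjustment over all. Alternatives were pseudocounts of 0.5 and 5, no filter, a mean of at least 50, TMM factors, equal totals, quantile normalization, no trend, the replicate block, edgeR 4.0.16, DESeq2 1.42.0 and each library left out, with leaving out for heavy chain shares added after the data were seen. The tests were also run on simulated data, with no outcome given here. Positions, lengths, overlaps and sequences came from GENCODE M21 on GRCm38, which holds 14782 of the 14924 identifiers. Levels per kb are values divided by exonic length.

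The members and lists were chosen with earlier results of these data known. Besides all partners, *S100a4* and *S100a5*, the genes named are, per pathway list, the most abundant per length and up to 4 called in each direction, per marker list the most abundant and any marker at 0, and the 3 nearest in pattern to the member with the largest difference among those with a mean of at least 50. *Mip*, *Myh11*, *Kdr*, *Dct*, *Col1a2*, *Slc38a3*, *Sept5*, *Mlana*, *Rhpn2*, *Wdr54*, *Cdkn1a*, *Gdf15*, *Fas*, *Tigar*, *Rrm2b*, *Rlbp1*, *Dcn*, *Tie1* and *C1qb* were named after their values were seen. The median chi-square per gene between replicates was 2.02 (S100A4-/-) and 1.10 (WT), against 0.455 for sampling noise alone, and floors of 3 reads cover counting error only.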

Additional observations from a re-analysis of the deposited data

How the results depend on the processing

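The count of partner genes past either threshold was 0 under each alternative run on all libraries. *Ager* did not reach a mean of 50, so it was not tested in the run with that filter. Of the 149 alternative log2 fold changes of the 10 genes, 138 kept their direction and 11 changed sign, all of them near 0: equal totals gave 0.012 for *Myh14*, 0.0033 for *Trp53* and 0.020 for *Mdm2*, and quantile normalization gave 0.031 for *Mdm2*. Leaving out each library in turn, the log2 fold changes ranged from −0.059 to 0.146 for *Myh9*, from −0.103 to 0.070 for *Myh14*, from −0.134 to 0.082 for *Trp53*, from −0.029 to 0.011 for *Mdm2*, from −0.154 to 0.025 for *Actb*, from −0.163 to 0.0015 for *Rhob*, from −0.022 to 0.026 for *Ptprf*, from −0.143 to 0.010 for *Cryaa* and from −0.024 to 0.122 for *Acta2*. *Ppfibp1* stayed below 0, between −0.090 and −0.036, as did *Sept8* (−0.079 to −0.011) and *Usp7* (−0.101 to −0.026). *Anxa2* (−0.143 to −0.060), *Tek* (−0.373 to −0.110) and *Vim* (−0.184 to −0.023) also stayed below 0. In these fits the lone library of a group was assumed to vary like the other group.

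The 6 pathway genes called moved to 0 when limma was fitted without the trend, where adjusted p-values were 0.146 for *Ccng1*, 0.125 for *Sesn2*, 0.194 for *Sept9*, 0.228 for *Actn1*, 0.334 for *Iqgap1* and 0.558 for *S100a6*, and all genes called at any fold fell from 1028 to 187 (from 550 to 181 with the fold threshold). With equal totals 5 pathway genes were higher and 0 lower. They numbered from 3 to 6 with each library left out, 3 being without the first S100A4-/- library. Over all genes, the counts were 661 at any fold with DESeq2, 287 past the 2-fold threshold with a mean of at least 50, and from 491 to 890 at any fold and from 281 to 543 past 2-fold with each library left out. Replicate numbers shared between the genotypes were treated as numbers only. Deviations of libraries with the same number correlated at 0.012 over the genes tested and at 0.056 over those with a mean of at least 50. With the replicate block 10 pathway genes were called, 6 higher and 4 lower. The cause of these moves was not tested. Among the 10 partner genes *Ager* had the fewest reads and the widest interval, and 2 libraries per genotype limit every test.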
